A study of Homo sapiens with 13 samples.

Results

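A single 3′ mRNA isoform, that is, one 3′ end mapped to one nucleotide, held at least 80% of the reads at 1572 of 5999 CCDS entries with at least 200 scaled reads in pooled wild-type cells (26.2%). A CCDS entry is a consensus protein-coding sequence, and 3′ ends up to 5000 nt downstream of its stop codon had been assigned to it. The 1572 entries (dominant-end entries) belonged to 1567 genes, with a pair of entries each for BMP1, DEF8, DMKN, PPP1R7 and SPEG. They were 10.5% of the 14952 entries with any read in the pooled wild-type table and held 39.9% of all its scaled reads. The entries were thus chosen by their pooled wild-type reads and shares, so those shares are a description and carry no test. The share was computed as the scaled reads of the highest isoform over the scaled reads of all isoforms of the entry.

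The libraries were made by 3′ READS, which sequences RNA just upstream of the poly(A) tail. There were 5 libraries of wild-type and 4 libraries of R749H cells, both HEK293 Flp-in T-REx lines, a human embryonic kidney line, that carried an integrated pcDNA5 plasmid for Rpb1, the largest subunit of RNA polymerase II (Pol II). In both lines the plasmid-borne Rpb1 carried the Amr change, which makes Pol II resistant to α-amanitin, so that Pol II with the cells' own Rpb1 was inhibited. R749H is a further change in the funnel domain of Rpb1 that slows elongation. Per the labels the cells received doxycycline at 2 µg/ml for 24 hr to induce the plasmid and α-amanitin at 2.5 µg/ml for 42 hr. The study's methods give a shorter time with doxycycline alone and keep doxycycline on while α-amanitin was present. The sample titles name an Avitag and the source names name B10. Each genotype was 1 cell line, so any other difference between the lines cannot be told apart from R749H, and the labels do not say whether the libraries of a line, which the study's methods call biological replicates, came from separate cultures. The p-values below measure only the spread between these libraries. The libraries held 2479851 to 10135014 recovered reads, and the median dominant-end entry had between 113.5 and 443.5 reads per library. R749H replicate 3 stood apart, since isoforms with just 1 read made up 6.60% of its isoforms and 30.05% to 36.2% of those in each of the other 8 libraries. Of genes used to recognise HEK293 cells, KRT18 was at 364 to 684 RPM (reads per 1000000 reads of a library) and VIM at 49.1 to 179 over the 9 libraries, NEFM did not exceed 0.403, and NEFL was not among the listed genes.

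Most human pre-mRNAs are cut and polyadenylated by the cleavage and polyadenylation (CpA) machinery, which recognises a hexamer, most often AAUAAA, upstream of the cut and G/U-rich sequence downstream of it. A gene usually makes a family of isoforms that differ by a few nucleotides within a cluster and by longer distances between clusters. Clusters are often put down to an imprecise cut. The study proposes that imprecision is not the only source and that local Pol II speed is linked to them. Genes at which 1 mapped end prevails show the least of this spread, though 1 mapped end can stand for several cuts within a run of genomic As. Slower Pol II can change the choice among ends.

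The genomic sequence around the dominant end is shown for entries that the results turn on, as 30 nt in the sense of the mRNA on GRCh37 (hg19). Each run holds the 25 nt up to the last mapped base and the 5 genomic nt that follow it. Capitals mark AATAAA, or ATTAAA where the run holds no AATAAA, written as DNA, and the A bases directly after the end. The first group has the most reads and the second the highest shares among entries with at least 1000 reads. The third holds some of the ends nearest to and farthest from the stop codon. The last holds some of those whose share is followed below in R749H.
RPL7A: attgaaataatacaaattttccttcAgcca
RPS6: aacaAATAAAtaagatcagactctgAtctc
RPL35: tgtcAATAAAgcacagctggctgagActgc
MIF: gggagaAATAAAcggtttagagactAggag
RPS28: aAATAAAgcgtttgtgtttcaagttAActc
EEF2: gaatAATAAAtttgataaggtggtgActct
RPL36: cctgaAATAAAgaacagcttgacagAAgcc
LGSN: ccctgcactcggagcgaccgatcggccggg
ADRA2C: ttttctaAATAAAcctttgtaatctAAtgt
EGFL7: cccagcacAATAAAaatgaaacgtgAgctg
HINT2: gatgctAATAAAactgttctcccttAAtta
ASIC3: accccaAATAAAgtcctaatgcatcAgcct
PRKAR2A: cttgattAATAAAggctgacaaatcAtgtc
BNIP2: atttaAATAAAttaattggaacgttcgtct
NAT8L: tttcAATAAAaccagagttgaaggcAcctg
ALX1: ttattaaagAATAAAtgtgttaaacAAAtt
SLC25A29: gggAATAAAgtgttctttgttttttAAgtg
UFSP2: aagaatcagtttaatttttcacattAAAtc
CAMK2G: ttAATAAAataacctttaaacagtccattg
DNAJB1: gcATTAAAgactgatgctaaacctcAgggg
H2AFX: tttATTAAAggattgttttttttttAAAtg
These runs lie on the plus strand at chr9:136218256-136218285 (RPL7A), chr22:24237385-24237414 (MIF), chr19:8387254-8387283 (RPS28), chr19:5691652-5691681 (RPL36), chr4:3770227-3770256 (ADRA2C), chr9:139567105-139567134 (EGFL7), chr7:150749816-150749845 (ASIC3), chr4:2070791-2070820 (NAT8L) and chr12:85695535-85695564 (ALX1). The others lie on the minus strand, at chr9:19376249-19376278 (RPS6), chr9:127620158-127620187 (RPL35), chr19:3976050-3976079 (EEF2), chr6:63985106-63985135 (LGSN), chr9:35812954-35812983 (HINT2), chr3:48784015-48784044 (PRKAR2A), chr15:59951340-59951369 (BNIP2), chr14:100757450-100757479 (SLC25A29), chr4:186321464-186321493 (UFSP2), chr10:75572254-75572283 (CAMK2G), chr19:14625577-14625606 (DNAJB1) and chr11:118964582-118964611 (H2AFX). All of them were in annotated 3′ UTRs except that of LGSN, which lay outside annotated transcripts.

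The printed ends show the arrangement seen across the dominant-end entries. AATAAA was found within the 40 nt up to the end, on the mRNA strand, at 1129 of 1572 entries, 71.8% (exact 95% binomial interval 69.5% to 74.0%), against 66.2% of the other 4427 entries with at least 200 reads. A further 15.9% had ATTAAA without AATAAA (16.8% of the others), 8.14% had only another hexamer of the set searched (11.5%), and 4.13% had none (5.47%). The set is given with the processing. The first base of AATAAA lay at a median of 21 nt before the end, counted to the last mapped base, with quartiles of 19 and 22 nt. At the other entries the median was 22 nt and the quartiles 19 and 24 nt. It lay 19 to 23 nt before the end at 65.2% of the dominant-end entries that held it and at 55.0% of the others. RPS6, RPL35 and EEF2, printed above, each had it at 21 nt. RPL7A, which encodes a ribosomal protein of the large subunit, had only CATAAA, which started 35 nt before the end, and AATACA, which lies in the printed run. UFSP2, a protease of the ubiquitin-like protein UFM1, had AATAAA at 29 nt, outside the printed run.

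The base after the dominant end was usually A. The last mapped base was never A in either group of entries, since the authors removed terminal As from the reads, so an end anywhere in a run of genomic As was placed at the base before the run. The next genomic base was A at 92.1% of the dominant-end entries and 82.0% of the others. At least 2 As followed the end at 46.2% against 34.4%, and at least 3 at 21.1% against 14.7%. Read the other way, 13.5% of the 921 entries without an A after their highest isoform were dominant-end entries. That percentage was 25.5% of 2827 entries with 1 A, 31.2% of 1270 with 2 As and 33.7% of 981 with 3 or more. Among the 374 dominant-end entries with a share of at least 95%, an A followed at 95.7% and at least 2 As at 53.5%. BNIP2 and CAMK2G, printed above, are among the dominant-end entries whose end no A follows. How far the placement of ends before A runs adds to the share was not tested.

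**Figure D1:**
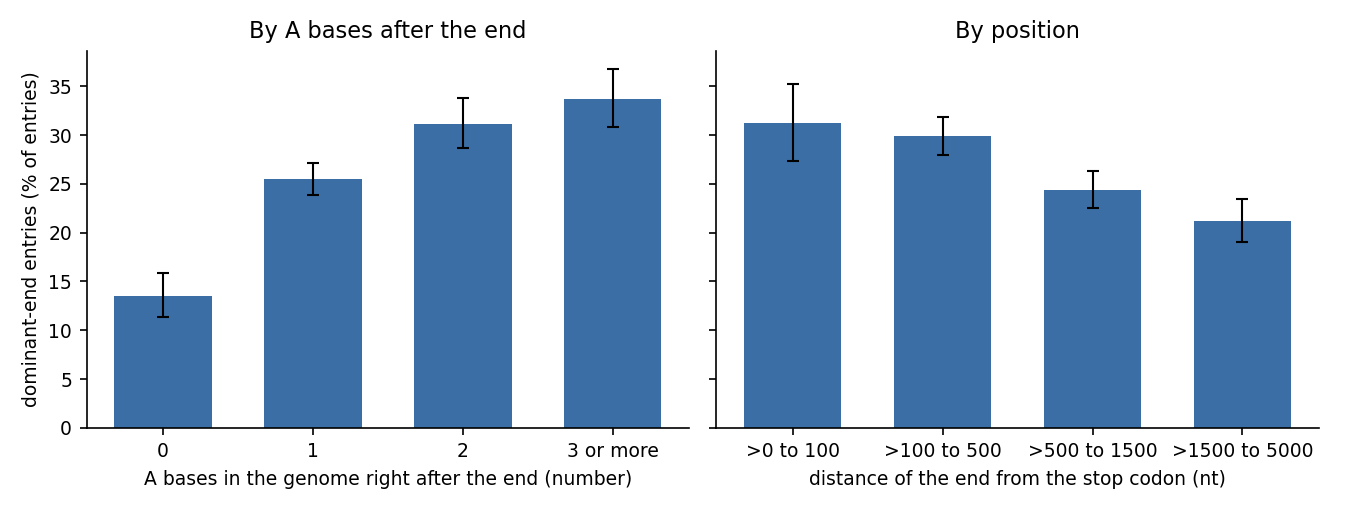
Percentage of the 5999 entries with at least 200 pooled wild-type reads that were dominant-end entries (vertical axis), by the number of A bases directly after the highest isoform (left) and by its distance from the stop codon in nt (right). Bars start at 0, and error bars are exact 95% binomial intervals, which cover counting only. The percentage was 13.5% without an A and 33.7% with 3 or more As, and it was 31.2% for ends within 100 nt of the stop codon and 21.2% beyond 1500 nt.

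Other short motifs differed by a few percentage points between the groups. TGTGT was in the 40 nt downstream of 21.7% of the dominant ends and 19.5% of the others, and TTTTT in the same window at 18.1% against 20.4%. TGTA, the core of the site bound by the CpA factor CFI, was in the 100 nt upstream of 47.3% against 52.0%. Among the 374 dominant-end entries with a share of at least 95%, TGTA was at 42.0%, TGTGT at 23.8% and TTTTT at 18.7%. G or T made up 62.6% of the bases 6 to 35 nt downstream of the dominant ends and 61.3% at the others. A match describes letters in a window and does not show that a factor bound there.

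Dominant ends lay closer to the stop codon than the highest isoforms of other entries. The median distance was 486 nt with quartiles of 205 and 1178 nt, against 649 nt with quartiles of 262 and 1460 nt. Distances are genomic, so that an intron in the 3′ UTR is counted. Within 100 nt of the stop codon lay 172 dominant ends (10.9%, against 8.56% of the others), over 100 and up to 500 nt lay 628 (39.9%, 33.3%), over 500 and up to 1500 nt lay 485 (30.9%, 34.0%) and over 1500 and up to 5000 nt lay 287 (18.3%, 24.1%). Distance and read number moved together with membership. Entries with 200 to under 500 reads were dominant-end entries in 20.2% of cases, and those with at least 10000 reads in 38.3%, and with at least 1000 reads required the median distance fell to 362.5 nt. Only 4 dominant ends lay within 100 nt of the 5000 nt limit, beyond which no end was assigned.

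**Figure D2:**
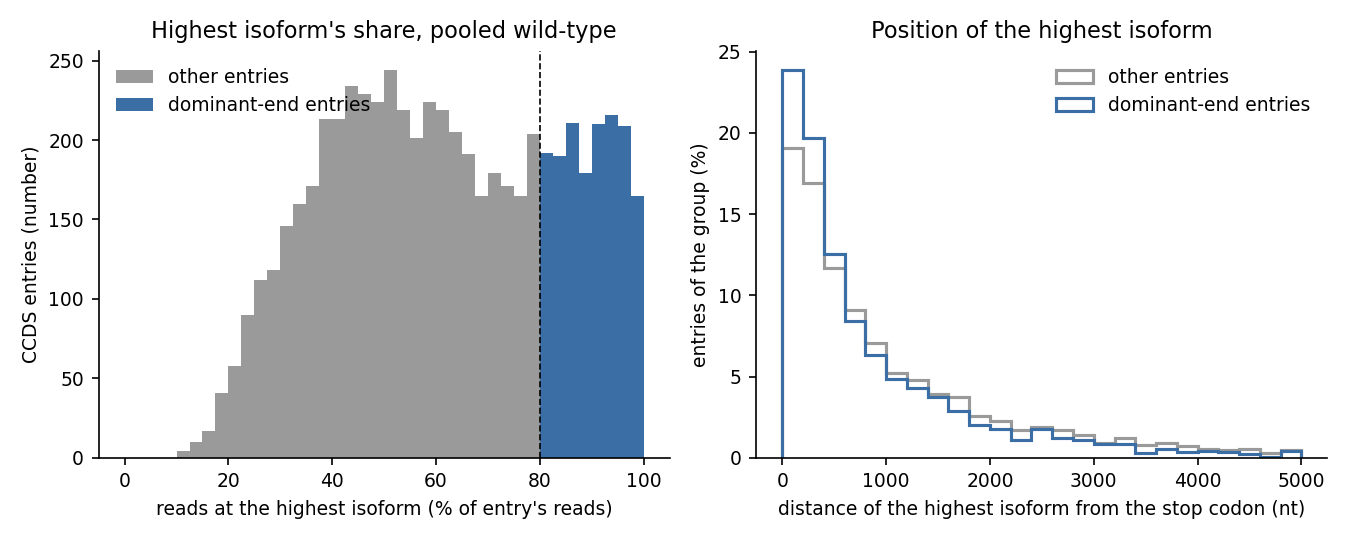
Left, number of entries (vertical axis) by the share of reads at the highest isoform in percent, for the 5999 entries with at least 200 pooled wild-type reads. The dashed line is the 80% that chose the 1572 dominant-end entries, and the counts show no gap there. Right, percentage of each group (vertical axis) by distance of the highest isoform from the stop codon in nt, in steps of 200 nt, with the dominant-end entries higher than the others in the first 3 steps.

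By annotation, 1561 of the 1572 dominant ends (99.3%) lay in an annotated 3′ UTR of any gene on the same strand, against 98.6% of the other entries. For 1548 it was a 3′ UTR of the entry's own gene by CCDS number, and 16 entries were not in the annotation. No end of either group was placed in a coding exon. Of the dominant ends, 8 lay in another part of an annotated transcript and 3 lay outside annotated transcripts. An annotated transcript end was within 10 nt of 1448 of them (92.1%), against 76.9% of the highest isoforms of the other entries. The 3 outside were those of LGSN, which encodes the lens protein lengsin, of ATP5H, a subunit of ATP synthase, and of C21orf58. The end of ATP5H lay only 3 nt past the nearest annotated transcript end, and that of C21orf58 lay 2458 nt past it. The end of LGSN lay 4815 nt from the stop codon, 745 nt past the annotated transcript end, with none of the hexamers and no A after it. It was the single isoform of that entry in all 9 libraries, so its share of 100% left nothing to compare, and it was not tested. Whether this end is a poly(A) site was not tested. The nearest ends to a stop codon were those of ASIC3, an acid-sensing ion channel, at 6 nt, of LKAAEAR1 at 7 nt and of SMPD2, a sphingomyelinase, at 13 nt. The farthest were those of PRKAR2A, a regulatory subunit of protein kinase A, at 4998 nt, of NAT8L, which makes N-acetylaspartate, at 4961 nt, and of ANKRD52, a regulatory subunit of a protein phosphatase, and BNIP2, both at 4923 nt.

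The shares ran from the threshold to 100% without a gap. From 80 to under 85% lay 382 entries, from 85 to under 90% lay 390, from 90 to under 95% lay 426 and at 95% or more lay 374, of which 34 reached 99%. The median share was 90.2%, against 51.8% for the other entries. The entries just inside the threshold were GNAS, the Gs protein α-subunit, at 80.02%, FAM220A at 80.05% and GOLT1B, a Golgi transport protein, at 80.06%. Those just outside were SNX17, a sorting nexin, at 79.99%, TAPBP, the peptide-loading chaperone tapasin, at 79.97% and XPNPEP1, an aminopeptidase, at 79.96%. Dominance at 1 nt did not mean that no other isoform was seen. The median dominant-end entry had 11 isoforms in the pooled wild-type table, and the other entries had a median of 18.

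The most abundant dominant-end entries were mainly genes of the ribosome. The 8 with the most pooled wild-type reads were RPL7A, RPL8, RPS6, RPL35, MIF, RPS28, EEF2 and RPL36, of which all but MIF, a cytokine, and EEF2, the factor that moves the ribosome along mRNA, encode ribosomal proteins. RPS28 had 98.6, 98.7, 98.8, 98.6 and 98.5% of its reads at 1 nt in the 5 wild-type libraries and 98.8, 98.7, 98.7 and 98.7% in the 4 R749H libraries. RPS6 had 97.5, 97.8, 97.7, 97.9 and 97.5% in wild-type and 98.1, 97.6, 98.4 and 97.6% in R749H. RPL35 stood near the threshold, with 81.8, 81.7, 81.6, 81.3 and 80.7% in wild-type and 81.7, 80.5, 79.99 and 81.0% in R749H. The libraries of each of these 3 genes spread by less than 2 percentage points and the cell lines overlapped, with 45860 to 222313 reads per library in the case of RPS6. Over the 9 libraries the share ran from 83.7% to 86.6% for RPL7A, from 85.3% to 88.0% for RPL8 and from 94.7% to 98.4% for RPL36. Ribosomal protein genes have many near-identical pseudogenes, and how reads with several matches were placed is not given in the sources used here, so their read numbers are uncertain.

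The entries with the highest shares spread by less than 2 percentage points between libraries. HINT2, a mitochondrial hydrolase, had 99.5, 99.5, 99.7, 99.5 and 99.7% in wild-type and 99.4, 99.4, 99.9 and 99.6% in R749H, from 1529 to 6856 reads per library. ADRA2C, an adrenergic receptor, had 99.2, 99.7, 100, 99.9 and 100% in wild-type and 98.7, 99.4, 100 and 99.7% in R749H. EGFL7, a secreted protein of blood vessels, had 100, 99.8, 99.8, 100 and 99.1% in wild-type and 98.8, 99.6, 100 and 100% in R749H. The cell lines overlapped at all 3 genes.

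Gene lists held dominant-end entries at unequal rates, beside 26.2% of all entries with at least 200 reads. Nuclear-encoded subunits of the respiratory chain and ATP synthase held 30 of 66 (45.5%), with a median position of 129 nt and shares of 81.8% to 99.1%. Among these, COX4I1, a subunit of cytochrome c oxidase, had a mean share of 98.9% ± 0.163 in wild-type (SD, n = 5) and 98.9% ± 0.387 in R749H (SD, n = 4), and NDUFB11, a subunit of complex I, 92.5% ± 0.397 and 92.4% ± 0.508. Cytosolic ribosomal proteins held 25 of 75 (33.3%), with a median position of 54 nt and shares of 80.4% to 99.7%. Proteasome genes held 9 of 35 (25.7%), zinc finger genes named ZNF 24 of 113 (21.2%), mitochondrial ribosomal proteins 13 of 65 (20.0%) and small nuclear ribonucleoprotein and LSM genes 3 of 20 (15%). Of 3 replication-dependent histone genes with enough reads, HIST3H2A was a dominant-end entry. Of 15 genes of the CpA machinery, CPSF1, the largest subunit of the hexamer-binding complex, and PABPC1, the cytoplasmic poly(A)-binding protein, were dominant-end entries. The lists differ in position and in read number, which moved with membership as given above, and no test over genes was run.

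The main question was whether the share at these ends differs when Pol II elongates slowly. In the pooled R749H table the highest isoform was the same nucleotide at all 1572 entries, and it held at least 80% of the reads at 1472 of them. The rule itself favoured the first of these counts, since an end with at least 80% in wild-type loses first place only by a large fall. The median pooled share was 90.2% in R749H, as in wild-type. The rule applied to pooled R749H cells chose 1453 of 5246 entries, and 1306 entries were chosen in both lines, 83.1% of the wild-type and 89.9% of the R749H choice. Of the 266 wild-type entries not chosen in R749H, 197 had fewer than 200 reads there.

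Over the 1563 dominant-end entries with reads in all libraries, the median share was 90.6, 90.5, 90.5, 90.2 and 90.5% in wild-type replicates 1 to 5 and 90.6, 90.5, 92.2 and 90.3% in R749H replicates 1 to 4. R749H replicate 3 was the highest of the 9, and the other 3 R749H libraries lay between 90.3% and 90.6%, beside 90.2% to 90.6% in wild-type. The mean of the library medians was 90.5% ± 0.160 in wild-type (SD, n = 5) and 90.9% ± 0.869 in R749H (SD, n = 4), a difference of 0.456 percentage points. Without R749H replicate 3 the R749H mean was 90.5% ± 0.163 (SD, n = 3) and the difference 0.0261 points. The share reached 80% in all 9 libraries at 1059 entries (67.8%) and fell under 50% in some library at 12. The range of an entry's share from its lowest to its highest library had a median of 8.73 points. With library medians of 113.5 to 443.5 reads per entry, counting alone also moves a share. How much of this range and of the falls under 80% it makes up was not tested.

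**Figure D3:**
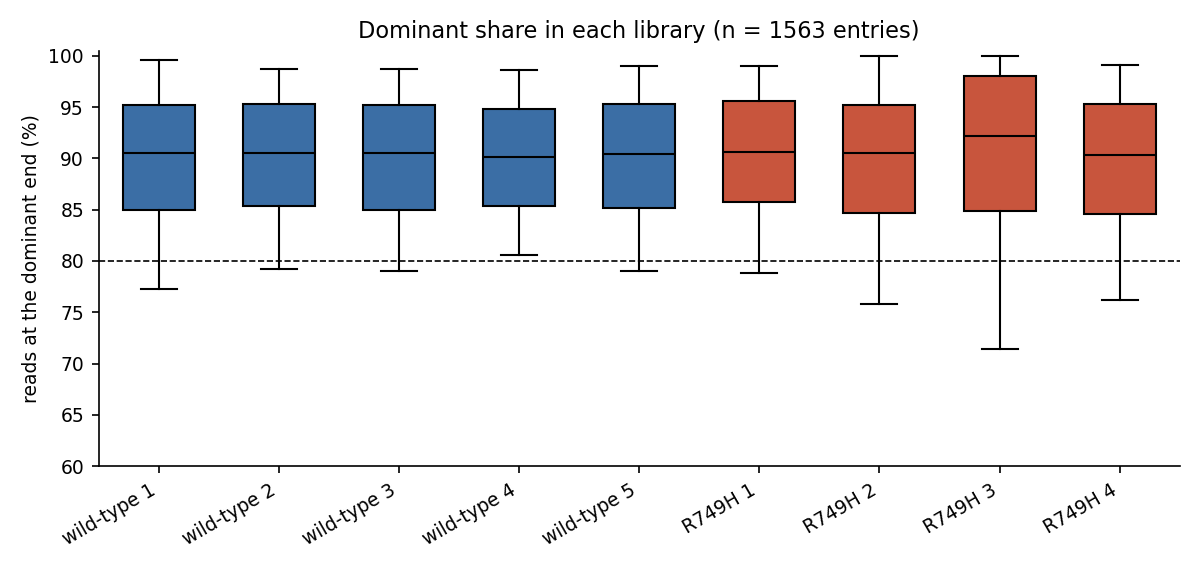
Share of reads at the dominant end in percent (vertical axis, from 60%) for 1563 dominant-end entries in each of the 5 wild-type (blue) and 4 R749H (red) libraries. Boxes span the quartiles with the median as a line, whiskers reach from the 5th to the 95th percentile, and the dashed line is 80%. Medians lie between 90.2% and 92.2%, and R749H replicate 3 has the highest median and the longest lower whisker.

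Reads away from the dominant end were spread over the same classes of distance in the 2 lines. On average over entries, isoforms 1 to 4 nt upstream of the dominant end held 2.69% ± 0.0335 of an entry's reads in wild-type (SD, n = 5) and 2.73% ± 0.106 in R749H (SD, n = 4), and isoforms 1 to 4 nt downstream held 2.13% ± 0.0588 and 2.21% ± 0.101. At 5 to 50 nt upstream the means were 1.05% ± 0.0253 and 1.11% ± 0.0401, with R749H libraries from 1.06% to 1.15% and wild-type libraries from 1.02% to 1.09%. At 5 to 50 nt downstream they were 2.34% ± 0.0685 and 2.29% ± 0.163. Beyond 50 nt, upstream isoforms held 1.0% ± 0.0934 and 1.04% ± 0.139, and downstream isoforms 0.941% ± 0.176 and 0.938% ± 0.104. The libraries of the 2 lines overlapped in all 6 classes.

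Entry by entry, the mean R749H share minus the mean wild-type share had a median of 0.186 percentage points, with quartiles of −1.14 and 1.45 and 5th and 95th percentiles of −6.20 and 4.51. It was under 5 points in size at 1384 of 1563 entries. It was lower by over 10 points in R749H at 30 entries and higher by over 10 points at 4. This imbalance changed sides with the line that chose the entries. Of 1451 entries chosen in pooled R749H, 1 was lower and 21 were higher by over 10 points in R749H, and of the 1306 chosen in both, 1 was lower and 3 were higher.

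**Figure D4:**
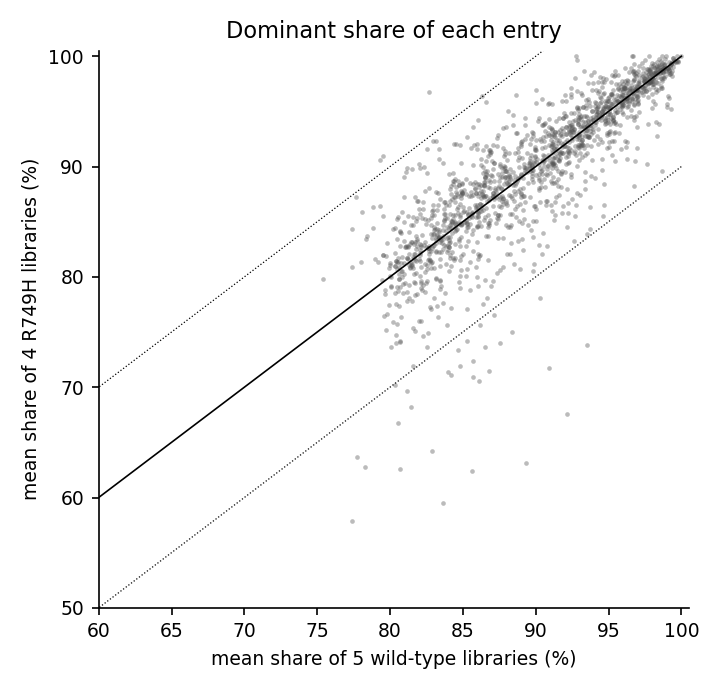
Mean share of reads at the dominant end in the 4 R749H libraries (vertical axis, percent, from 50%) against the mean in the 5 wild-type libraries (horizontal axis, percent, from 60%) for 1563 dominant-end entries, 1 point each. The solid line is equality and the dotted lines are 10 percentage points away, with 30 points under the lower and 4 over the upper.

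The change was tested with limma on the log2 odds of a read at the dominant end, over all 7955 entries that averaged 20 reads or more per library, with the dominant isoform taken from both lines together. At an adjusted p under 0.05 (Benjamini-Hochberg), 5 of the 7955 entries changed (0.0629%), and none of the 1571 dominant-end entries tested did. The smallest adjusted p among them was 0.0908, at NAT8L. At an unadjusted p under 0.05 there were 88 of 1571 (5.60%), 47 higher and 41 lower in R749H, beside 8.13% of all entries tested (4.44% higher and 3.7% lower). All R749H libraries lay above all wild-type libraries at 20 dominant-end entries (1.27%, beside 1.85% of all tested) and below them at 22 (1.40%, beside 1.7%). The median log2 odds difference was 0.056 over dominant-end entries and 0.039 over all entries, and it was −0.012 over dominant-end entries without R749H replicate 3. A median standard error of 0.44 on the log2 odds scale limits what could be seen at a single dominant-end entry. By the rule, a smaller part of the reads of these entries lies outside the end. Its part in the lower percentages of dominant-end entries was not tested. On the same reads, edgeR called 10 entries (0.126%), of which NAT8L was a dominant-end entry, and DESeq2 called 31 (0.39%), of which 7 were. With limma, NAT8L passed without R749H replicate 1 (log2 odds difference 1.74, limma adjusted p = 0.0378), and DNAJB1 passed without R749H replicate 3 (−1.24, limma adjusted p = 0.0337).

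NAT8L had the smallest limma p of the dominant-end entries. Its share was 90.8, 93.8, 93.2, 92.7 and 91.8% in wild-type and 95.7, 98.3, 98.2 and 96.2% in R749H, from 277 to 2330 reads per library. All 4 R749H libraries lay above all 5 wild-type libraries. The log2 odds difference was 1.51 ± 0.29 (SE), with an adjusted p of 0.0908 by limma, 0.0392 by edgeR and 0.0125 by DESeq2. Upstream isoforms together held 6.95% of its reads in wild-type and 2.66% in R749H, and the one that differed most, 3180 nt upstream, held 1.88% ± 0.727 (SD, n = 5) and 0.198% ± 0.255 (SD, n = 4).

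Where no dominant-end entry passed, the 3 with the largest change in each direction among those whose lines did not overlap are described. ALX1, a homeobox transcription factor, had shares of 93.7, 93.3, 93.0, 92.9 and 91.6% in wild-type and 100, 100, 100 and 98.5% in R749H. The lines did not overlap, with 28 to 77 reads in each R749H library. The isoform 4 nt upstream held a mean of 2.43% of the reads in wild-type and 0.373% in R749H, and the downstream isoforms 4.71% and 0%. The log2 odds difference was 2.78 ± 0.62 (SE, limma adjusted p = 0.162). KIAA1430 had 78.1, 94.4, 92.0, 86.5 and 92.1% in wild-type and 95.8, 95.1, 100 and 95.2% in R749H (1.93 ± 0.79, limma adjusted p = 0.564). ARHGEF7 had 84.8, 81.0, 81.4, 82.7 and 87.0% in wild-type and 87.9, 87.7, 100 and 87.1% in R749H (1.73 ± 0.89, limma adjusted p = 0.630). The R749H value for KIAA1430 and ARHGEF7 at 100% was in both cases that of replicate 3, and the highest wild-type library came within a percentage point of the lowest R749H library.

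In the other direction, SLC25A29, a mitochondrial carrier of basic amino acids, had 92.3, 91.5, 92.0, 93.1 and 98.7% in wild-type and 78.8, 64.3, 72.3 and 80% in R749H (−2.43 ± 0.63, limma adjusted p = 0.255). Its R749H libraries held only 14 to 47 reads. MYO1C, a single-headed myosin, had 83.9, 83.3, 89.8, 92.9 and 96.9% in wild-type and 75.9, 57.9, 36.4 and 82.5% in R749H, from 11 to 40 reads (−2.26 ± 0.72, limma adjusted p = 0.431). UFSP2 had 78.2, 85.7, 93.1, 84.7 and 86.6% in wild-type and 68.8, 64.5, 45.5 and 70.8% in R749H, from 93 to 132 R749H reads (−1.88 ± 0.42, limma adjusted p = 0.162, DESeq2 adjusted p = 0.0125). All R749H libraries of the 3 genes lay below all wild-type libraries, which their selection required. The entries were chosen for a high wild-type share, which favours this direction. At UFSP2 the dominant end is 77 nt from the stop codon, and downstream isoforms held 11.3% of the reads in wild-type and 35.3% in R749H, the largest gain being at 4617 nt from the stop codon (1.78% ± 1.34 and 10.8% ± 5.42).

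The other 5 dominant-end entries called by DESeq2 were all lower in R749H and were singled out after their values were seen. Choosing the entries by a high wild-type share favours this direction, as the counts by choosing line given above show. The p-values of these entries do not allow for it. CAMK2G, a calmodulin-dependent kinase, had 78.3, 82.8, 77.1, 83.4 and 82.0% in wild-type and 72.8, 70.8, 52.0 and 54.7% in R749H (DESeq2 log2 odds difference −1.31, adjusted p = 0.0173, limma adjusted p = 0.161). Its downstream isoforms went from 9.68% of the reads to 23.5%. DNAJB1, a heat shock cochaperone, had 91.4, 90.7, 92.4, 88.2 and 89.5% in wild-type and 83.7, 80.7, 88.5 and 75.5% in R749H (DESeq2 −1.02, adjusted p = 0.0392, limma adjusted p = 0.253). An isoform 1009 nt upstream held 6.95% ± 1.67 of its reads in wild-type and 15.1% ± 4.38 in R749H. R749H replicate 3 of DNAJB1 lay within the wild-type range and the other 3 below it.

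H2AFX, the histone variant H2A.X, showed the smallest of these differences on the log2 odds scale, with the most reads. Its share was 89.7, 90.5, 90.2, 90.6 and 90.6% in wild-type and 88.6, 86.1, 85.5 and 87.0% in R749H, from 882 to 7165 reads (DESeq2 −0.51, adjusted p = 0.0145, limma adjusted p = 0.120). All R749H libraries lay below all wild-type libraries, and the isoform 1 nt upstream held 7.13% ± 0.292 of the reads in wild-type and 10.5% ± 1.16 in R749H. TMCO6 had 72.8, 85.4, 87.9, 85.5 and 83.0% in wild-type and 76.0, 62.9, 63.6 and 54.2% in R749H (DESeq2 −1.44, adjusted p = 0.0285, limma adjusted p = 0.238), and the lines overlapped through wild-type replicate 1. TTLL12, of the tubulin tyrosine ligase-like family, had 99.1, 98.1, 98.5, 98.8 and 99.03% in wild-type and 97.8, 97.3, 95.8 and 97.6% in R749H (DESeq2 −1.10, adjusted p = 0.0483, limma adjusted p = 0.332). The larger gain of these entries lay upstream of the dominant end at DNAJB1 and H2AFX and downstream of it at CAMK2G, UFSP2, TMCO6 and TTLL12.

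**Figure D5:**
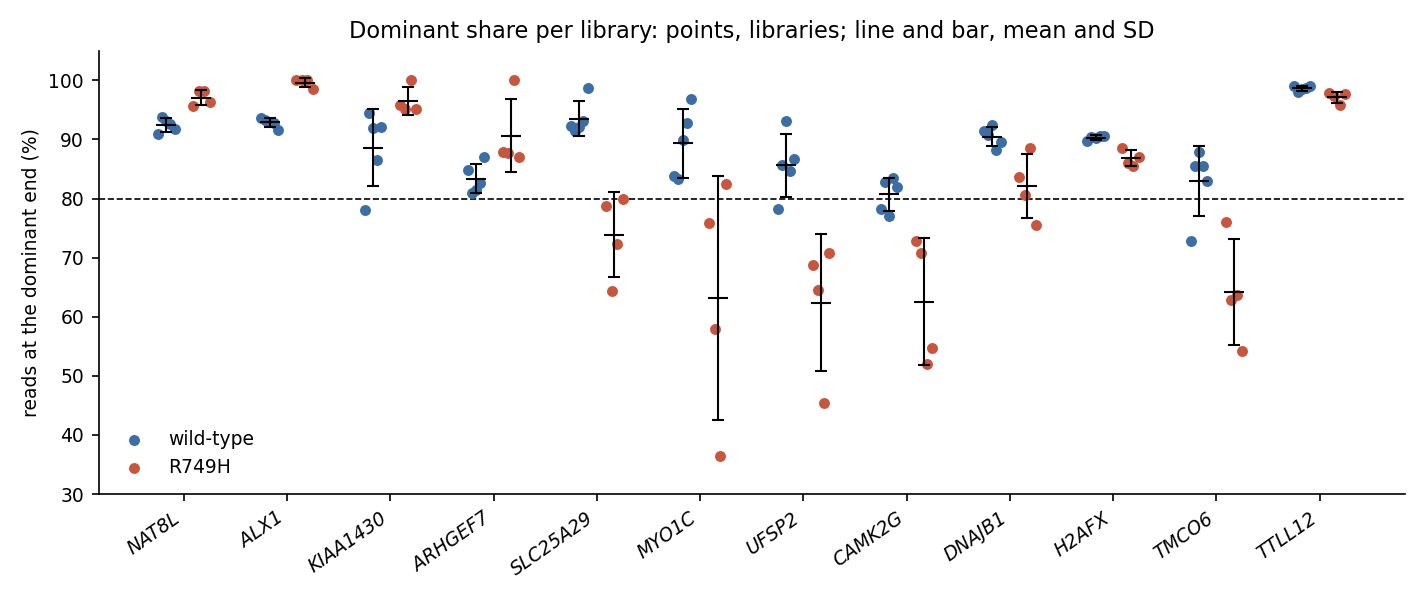
Share of reads at the dominant end in percent (vertical axis, from 30%) of 12 entries in each wild-type (blue, n = 5) and R749H (red, n = 4) library. Points are libraries, black lines and bars are means and SDs, and the dashed line is 80%. NAT8L, ALX1, KIAA1430 and ARHGEF7 are higher in R749H and the other 8 lower, with DNAJB1 and TMCO6 overlapping between the lines.

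At the threshold itself single libraries scattered widely at some entries and less at others. SNX17 had 77.7% to 83.2% in wild-type and 79.2% to 80.1% in R749H. GOLT1B had 60.6, 79.4, 73.0, 83.1 and 90.8% in wild-type and 67.7, 53.6, 55.1 and 55.3% in R749H, from 33 to 130 reads (log2 odds difference −1.42 ± 0.48, limma adjusted p = 0.463). GNAS had 87.1, 82.7, 72.3, 76.4 and 79.8% in wild-type and 76.9, 78.4, 81.0 and 77.5% in R749H. XPNPEP1, just outside, had 72.3, 79.9, 79.0, 80.8 and 81.6% in wild-type and 85.1, 80.9, 96.5 and 84.8% in R749H. The lines overlapped at each of these entries.

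Expression, meaning all reads of an entry, was compared over the same 9 libraries. By limma on log2 RPM, 501 of 1572 dominant-end entries changed (31.9%), beside 25.1% of all 9681 entries tested. Of these, 257 were higher in R749H (16.3%, beside 11.3% of all) and 244 lower (15.5%, beside 13.8%). The median pooled wild-type reads were 990 at the dominant-end entries and 677 at the other entries with at least 200 reads, and the part of read number in these percentages was not tested. The median log2 fold change was 0.0035 over dominant-end entries and −0.065 over all entries. In bulk samples a change in RNA per cell and a change in the mix of cells cannot be told apart.

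The calls were unequal between chromosomes. On chromosome 20, 24 of 50 dominant-end entries rose and 3 fell in R749H (median log2 fold change 0.65, and 0.51 over all 263 entries tested there). On chromosome 17, 12 of 120 rose and 40 fell (median −0.32, and −0.42 over all 628). On chromosome 18, none of 15 rose and 2 fell (median −0.32, and −0.45 over all 142). Gene copy number was not measured, so a difference in copy number between the 2 cell lines cannot be told apart from R749H here.

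The expression changes described next were the largest among dominant-end entries past the threshold whose lines did not overlap. The largest rises were at FGFR3, a fibroblast growth factor receptor, POLR2A, which encodes Rpb1, and LGMN, the lysosomal protease legumain. FGFR3 had 52.8, 69.0, 63.2, 59.1 and 35.4 RPM in wild-type and 383, 396, 385 and 316 in R749H (log2 fold change 3.06 ± 0.20 SE, limma adjusted p = 1.92e-08), and its dominant share stayed at 84.2% ± 1.95 (SD, n = 5) and 84.96% ± 0.952 (SD, n = 4). POLR2A had 76.2, 73.4, 102.7, 76.4 and 134 RPM in wild-type and 225, 337, 306 and 422 in R749H (2.12 ± 0.23, limma adjusted p = 7.30e-06), with a share of 95.02% ± 1.04 and 95.02% ± 1.03. LGMN had 13.3, 10.9, 14.4, 15.2 and 10.8 RPM in wild-type and 43.9, 43.2, 66.0 and 30.3 in R749H (2.07 ± 0.22, limma adjusted p = 5.35e-06). The lines overlapped in dominant share at all 3. The reads of POLR2A were at an end 433 nt from its stop codon in the genome, and whether plasmid transcripts use a 3′ end of this kind is not given in the sources used here.

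The largest falls, ranked in the same way, were at MYOM2, a protein of the sarcomere M-band, IGSF21, a synaptic adhesion protein, and LCN15, a lipocalin. All 3 were chosen on their pooled wild-type reads, 436, 311 and 311. A gene nearly absent from wild-type could not be chosen, so a matching rise from near 0 could not appear. MYOM2 had 32.3, 17.0, 21.8, 18.2 and 14.5 RPM in wild-type and 1.54, 0.479, 0.777 and 1.31 in R749H (−3.66 ± 0.32, limma adjusted p = 7.39e-07). IGSF21 had 5.24, 12.2, 14.9, 15.3 and 14.9 in wild-type and 1.39, 0.719, 0 and 0.374 in R749H (−3.58 ± 0.46, limma adjusted p = 4.70e-05), and LCN15 had 10.5, 17.4, 9.87, 12.9 and 17.9 in wild-type and 1.70, 0.719, 0 and 1.12 in R749H (−3.43 ± 0.44, limma adjusted p = 4.69e-05). The R749H libraries held at most 11 reads of each, far too few for a share. A prior count in the fit makes such fold changes smaller than the ratio of the levels.

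Among the gene lists, 16 of the 25 dominant-end ribosomal protein entries rose in R749H and none fell, beside 38 that rose and 2 that fell of 84 ribosomal protein entries tested. Their median log2 odds difference in share was 0.071, beside 0.039 over all entries. RPL7A had 25830, 30400, 32100, 32420 and 24290 RPM in wild-type and 35510, 35960, 37660 and 31050 in R749H (0.60 ± 0.20, limma adjusted p = 0.0327), with a share of 84.5% ± 0.528 (SD, n = 5) and 84.9% ± 1.21 (SD, n = 4). The lines overlapped, since R749H replicate 4 lay within the wild-type range. Of 30 respiratory chain and ATP synthase entries 7 rose and 1 fell, of 13 mitochondrial ribosomal entries 3 rose and 2 fell, of 24 zinc finger entries 3 rose and 5 fell, and of 9 proteasome entries 1 rose. These counts stand beside 11.3% higher and 13.8% lower of all entries tested, and 16.3% and 15.5% of the dominant-end entries, and no test over genes was run. HIST3H2A, a histone gene, rose from 89.5 ± 26.0 to 204 ± 16.9 RPM (SD, n = 5 and n = 4) with log2 fold change 1.55 ± 0.20 and limma adjusted p = 4.77e-05, and its share was 96.7% ± 1.04 and 96.6% ± 0.700. The rise was not particular to it, since 7 of 8 replication-dependent histone entries tested rose and 0 fell. SNRPA, a protein of the U1 particle of the spliceosome, fell from 187 ± 10.1 to 74.4 ± 11.8 RPM (−1.03 ± 0.17, limma adjusted p = 0.000317), and its share was 85.3% ± 1.66 and 84.5% ± 2.86.

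Of 28 entries of CpA machinery genes tested, 5 rose and 2 fell in R749H, beside 11.3% higher and 13.8% lower of all entries tested, and the dominant-end entries among them were CPSF1 and PABPC1. CPSF1 had 381, 502, 426, 496 and 440 RPM in wild-type and 468, 562, 586 and 479 in R749H (0.54 ± 0.17, limma adjusted p = 0.0253), with overlapping lines and a share of 90.9% ± 0.499 (SD, n = 5) and 90.9% ± 0.686 (SD, n = 4). PABPC1 had a log2 fold change of 0.076 ± 0.44 (limma adjusted p = 0.918) and a share of 81.6% ± 7.08 and 85.5% ± 8.43. The others of the list that rose included CSTF3, a subunit of the factor that binds downstream G/U-rich sequence (1.29 ± 0.23, limma adjusted p = 0.000658), 1 of the 2 entries of PAPOLA, a poly(A) polymerase (1.25 ± 0.32, limma adjusted p = 0.00856, and 0.40 ± 0.36, limma adjusted p = 0.438, for the other), and NUDT21, a subunit of CFI (1.21 ± 0.21, limma adjusted p = 0.000635). None of these 3 had a dominant end by the rule. The 2 that fell, named after their values were seen, were CPSF3, the endonuclease that cuts the transcript (−0.73 ± 0.24, limma adjusted p = 0.0327), and PABPN1, the nuclear poly(A)-binding protein (−0.76 ± 0.24, limma adjusted p = 0.0268).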

How the data were processed

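3′ READS libraries from 5 wild-type and 4 R749H samples were used, and 4 NETseq samples were not analysed here. Per the study's methods the authors removed random bases and initial Ts, mapped reads to hg19 with bowtie, kept reads with non-templated As, excluded mitochondrial reads and gave each 3′ end to the nearest CCDS stop codon within 5 kb upstream of it. The deposited values are a signal per isoform, that is, reads scaled by the authors to 7 M per replicate and 25 M per pooled cell line. Each value was divided by the value of 1 read in its table, and 100% of values came out whole within 0.006 scaled reads. The pooled tables equalled the sums of their replicates. The rule for dominant ends used the pooled wild-type table.

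The share was tested with limma 3.58.1 (R 4.3.3) on log2 odds, with a prior of 0.5 reads in proportion to depth, over entries averaging 20 reads or more per library. Expression was tested with limma-trend (TMM factors, filterByExpr, prior count 2). Both used Benjamini-Hochberg adjustment over all entries at 0.05, and edgeR 4.0.16 and DESeq2 1.42.0 on recovered reads, with an isoform-class by cell line interaction for the share, were alternatives. The tests were checked on simulated data. Sequence came from GRCh37 and annotation from GENCODE version 44 lifted to it. The hexamers searched on the mRNA strand were AATAAA or ATTAAA, and failing these AGTAAA or TATAAA or CATAAA or GATAAA or AATATA or AATACA or AATAGA or ACTAAA or AAAAAG, and matches may overlap.

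Named genes were the 8 dominant-end entries with the most reads, the 4 with the highest share among those with at least 1000 reads, the 3 nearest to and 3 farthest from the stop codon with ties, the 3 on each side of 80%, the 3 largest changes of share and of expression in each direction, the 2 of each gene list with the most reads and up to 3 changed CpA genes. Changes of share and of expression were ranked among entries whose lines did not overlap, those of expression also past the threshold. Entries called only by an alternative and ends outside annotated 3′ UTRs were added after their values were seen. Entries on chromosome 8 are named without sequence. The dominant-end entries and gene lists were chosen with earlier results of these data known. Intervals cover counting error only.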

Additional observations from a re-analysis of the deposited data

Results flagged for a closer look

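A library far from the others of its line was looked for in 139 groups of 4 or 5 libraries, by the gap to the nearest other library over the range of the group, and 15 were found. Chance alone flags about 1 in 20 groups. Among summaries over the dominant-end entries, the median share of wild-type replicate 4 was 90.18% beside 90.48% to 90.57% in the other wild-type libraries, and wild-type replicate 1 had 2.754% of reads 1 to 4 nt upstream beside 2.675% to 2.686% and 1.248% over 50 nt downstream beside 0.8258% to 0.9315%. Wild-type replicate 1 was the shallowest library and wild-type replicate 4 the deepest.

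In R749H replicate 3 the share of FAM220A was 53.33% beside 79.59% to 83.33%, that of KIAA1430 was 100% beside 95.12% to 95.77% and that of ARHGEF7 was 100% beside 87.10% to 87.88%. In the other R749H libraries the share of GOLT1B was 67.69% in replicate 1 beside 53.62% to 55.26%, that of LGMN was 82.78% in replicate 2 beside 88.24% to 89.08% and that of ALX1 was 98.51% in replicate 4 beside 100%. FGFR3 was at 315.6 RPM in R749H replicate 4 beside 383.0 to 395.8.

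In wild-type the share of FGFR3 was 80.92% in replicate 1 beside 84.54% to 85.98%, and that of COX4I1 was 99.18% in replicate 2 beside 98.79% to 98.90%. In wild-type replicate 5 the share of EGFL7 was 99.08% beside 99.83% to 100%, that of SLC25A29 was 98.68% beside 91.49% to 93.12% and that of ZNF581 was 94.20% beside 95.26% to 95.66%.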

How the results depend on the processing

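The 1572 dominant-end entries became 800 with a share of at least 90%, 782 with at least 1000 reads and 2429 with reads within 2 nt added to the highest isoform. Over all 1572, AATAAA or ATTAAA stood within 40 nt of 87.7% of the ends, and over those with at least 1000 reads the median position was 362.5 nt. The difference in median share, 0.456 percentage points, ran from 0.0271 without R749H replicate 3 to 0.654 without R749H replicate 4, over entries with reads in all the libraries kept. Without R749H replicate 3 the median log2 odds difference of the dominant-end entries went from 0.056 to −0.012. Entries with a changed share numbered 5, and 12 with a mean of at least 50 reads, 12 with libraries thinned to the smallest, 11 with reads within 2 nt added (an alternative chosen after seeing the data), 10 with edgeR and 31 with DESeq2. They ran from 4 to 10 when each replicate was left out in turn, with 10 without R749H replicate 1 and 9 without R749H replicate 3. Of the dominant-end entries, 0 changed, 1 did with edgeR, 7 with DESeq2, and 0 to 1 when a replicate was left out, NAT8L without R749H replicate 1 and DNAJB1 without R749H replicate 3. The causes were not tested, beyond fewer reads or fewer entries tested where the alternative itself removes them. The other alternatives for these results and those for expression kept their direction and side of the threshold or stayed within 1.5 times, with 335 to 554 changed dominant-end entries when a replicate was left out, and apart from that median none of them turned direction. UFSP2 passed with DESeq2 alone. No isoform was listed under more than 1 entry, so leaving out shared isoforms changed nothing.

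Equal replicate numbers did not pair the libraries. The deviations of equal numbers correlated at −0.0205 to 0.00303 for the share and −0.0753 to 0.0455 for expression, and not every library correlated best with its own number. With a replicate block on replicates 1 to 4, 11 entries changed in share (5 without the block) and 0 dominant-end entries, and 2248 changed in expression (2361 without the block).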
